A study of Mus musculus with 6 samples.

Results

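The 9 genes described here encode the core of the DNA damage checkpoint: the damage kinases Atm and Atr, the checkpoint kinases Chek1 and Chek2, the homologous recombination factors Brca1 and Brca2, and the p53 axis of Trp53, Mdm2 and Cdkn1a. They were taken by gene symbol from a table of 53023 genes, which listed each of the 9 once. Libraries for RNA-seq were made from two-cell ICR mouse embryos at 28 hours post insemination (hpi), with 3 groups and 2 libraries per group. Non-injection embryos received no mRNA. PIASy-WT embryos received mRNA for mCherry-HA-tagged PIASy, a ligase that attaches SUMO proteins to its targets, and PIASy-Mut embryos received the same mRNA with C335F, a change within the RING finger, at 100 ng/µl between 1.5 and 3 hpi, after which embryos with a fluorescent signal at 9 hpi were kept. Each library pooled 5 embryos, and the labels do not say whether the pools came from separate collections, so P-values measure the spread between these pools only. No group was injected with an unrelated mRNA, so PIASy-Mut was the only control that shared the injection with PIASy-WT.

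In a dividing cell, ATM is activated by double-strand breaks and ATR by stretches of single-stranded DNA at stalled replication forks. ATM passes the signal mainly to CHK2 (Chek2) and ATR mainly to CHK1 (Chek1), and these kinases hold back CDK1 and stabilise p53. Breaks are repaired by homologous recombination, in which BRCA1 promotes resection and BRCA2 acts on the resected ends, while p53 induces both the CDK inhibitor p21 (Cdkn1a) and its own ubiquitin ligase MDM2. Oocytes store transcripts of many of these genes, and early cleavage relies on this maternal supply until the zygotic genome is activated.

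Chek1 was more abundant in PIASy-WT, and Chek2, Atm and Brca2 were less abundant. They were the members whose 95% intervals left out 0 in both comparisons of PIASy-WT, although 0 of the 8 members tested passed after adjustment. Such an interval amounts to an unadjusted P under 0.05 in limma, found for 28.2% (non-injection) and 27.7% (PIASy-Mut) of all genes tested. The share of genes with both was not computed, and the comparisons share the PIASy-WT libraries. Promoters of Chek1, Chek2, Atm and Brca2 are given to show what these genes share in sequence next to their start sites. RefSeq promoter windows of build GRCm38.p6 (mm10), from 250 bases before to 50 bases after the start, matched all 9 genes in 10 windows, as Cdkn1a has a pair of start sites. The windows shown are chr9:36726609-36726908 (minus strand) for Chek1, chr5:110839733-110840032 (plus strand) for Chek2, chr9:53536622-53536921 (minus strand) for Atm and chr5:150522371-150522670 (plus strand) for Brca2. Each is written 5′ to 3′ in the direction of the gene, and capitals mark matches on either strand to a GC box (letters GGGCGG), to the box named after its letters CCAAT, to a cell cycle homology region (letters TTTGAA) or to an E2F core.
Chek1: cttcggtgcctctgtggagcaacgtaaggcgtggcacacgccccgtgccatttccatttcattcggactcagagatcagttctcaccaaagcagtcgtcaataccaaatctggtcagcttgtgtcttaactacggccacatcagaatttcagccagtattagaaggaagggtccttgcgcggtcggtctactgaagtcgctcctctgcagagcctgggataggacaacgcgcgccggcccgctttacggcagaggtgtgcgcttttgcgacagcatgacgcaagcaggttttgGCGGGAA
Chek2: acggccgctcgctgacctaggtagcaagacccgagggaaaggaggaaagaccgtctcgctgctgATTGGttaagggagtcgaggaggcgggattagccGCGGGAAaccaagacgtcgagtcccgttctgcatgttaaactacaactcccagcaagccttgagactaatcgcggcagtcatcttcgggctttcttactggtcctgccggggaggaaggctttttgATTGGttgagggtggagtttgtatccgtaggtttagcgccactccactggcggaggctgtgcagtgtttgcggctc
Atm: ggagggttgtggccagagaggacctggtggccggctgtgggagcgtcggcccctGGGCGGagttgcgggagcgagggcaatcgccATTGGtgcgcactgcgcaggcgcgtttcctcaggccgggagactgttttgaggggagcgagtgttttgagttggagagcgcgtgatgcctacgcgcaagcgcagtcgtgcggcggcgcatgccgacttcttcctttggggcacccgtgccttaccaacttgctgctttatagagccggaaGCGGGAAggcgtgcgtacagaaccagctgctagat
Brca2: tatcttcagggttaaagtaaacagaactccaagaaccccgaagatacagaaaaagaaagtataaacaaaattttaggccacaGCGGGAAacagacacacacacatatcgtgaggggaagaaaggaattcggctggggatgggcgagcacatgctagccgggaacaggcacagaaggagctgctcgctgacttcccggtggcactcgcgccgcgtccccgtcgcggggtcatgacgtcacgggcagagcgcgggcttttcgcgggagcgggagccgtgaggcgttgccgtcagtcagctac

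The E2F core was searched as TTCCCGC, with the spelling TTCGCGC, the spelling TTGCCGC and the spelling TTGGCGC also allowed. All 4 windows held 1 E2F core, the reverse complement of TTCCCGC in the direction of the gene, although Chek1 differed from the other 3 genes in the direction of its difference. An E2F core was present in the windows of 5 of the 9 members, the fifth being Brca1, and in 9.57% of the 32851 windows of all genes. A CCAAT box was present for 5 of the 9 members and in 37.4% of all windows, a GC box for 4 of 9 and in 35.7%, and TTTGAA for 0 of 9 and in 17.9%. No base of a member window belonged to 2 kinds of motif. The 4 windows shown held 22, 21, 28 and 25 CpG dinucleotides for Chek1, Chek2, Atm and Brca2, against a median of 7 over all windows. The other members had 22 (Atr), 19 (Brca1), 35 (Mdm2), 10 (Trp53) and 2 and 23 (Cdkn1a). High counts were therefore not particular to the 4 windows shown. Every spelling of the E2F core contains CG, and the share of 9.57% was not matched for CpG count. These matches describe letters only, and binding of a factor was not measured.

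The authors deposited FPKM values (fragments scaled to gene length and library depth). FPKM multiplied by gene length was a whole multiple of 1 fragment for 100% of the values above 0 (tolerance 0.01 fragment), which gave depths of 871663 to 1363928 fragments per library, with the PIASy-Mut libraries the shallowest. At these depths 3 fragments, the limit that a count of 0 allows, corresponded to 2.20 to 3.44 CPM (fragments scaled to a common library total), which covers counting error only. Pias4, which encodes PIASy, had FPKM values of 2.98 and 3.59 without injection, 862 and 611 for PIASy-Mut and 610 and 579 for PIASy-WT, so the injected mRNA was present where the labels state it. The 8 markers of two-cell embryos summed to 2110 to 2270 CPM in non-injection, 2274 to 2452 in PIASy-Mut and 974 to 1354 in PIASy-WT. Of these markers 0 were at 0 in all libraries. Relative to non-injection 2 of the 8 passed in PIASy-WT, Obox3 at -3.80 (limma adjusted P=0.0224) and Tdpoz4 at -1.69 (limma adjusted P=0.0318). Of all genes tested 6.8% passed. The log2 fold change was below 0 for 6 of the 8 markers, with a median of -0.60, and above 0 for Zscan4c (0.44) and Usp17la (0.58). The 8 oocyte markers summed to 8479 to 9580 in non-injection, 8775 to 9844 in PIASy-Mut and 9707 to 11020 in PIASy-WT, and 0 of them were at 0 in all libraries. In PIASy-WT relative to non-injection 1 of these 8 passed (Zp3, log2 fold change -1.57, limma adjusted P=0.0292), 3 had a log2 fold change below 0, Zp3 included, and their median was 0.48. Of 8 cumulus cell markers, Inhba, Amh and Foxl2 were at 0 and the sum was 3.67 to 7.96 in non-injection, 6.78 to 16.1 in PIASy-Mut and 11.3 to 15.8 in PIASy-WT. Of 6 sperm markers, Tnp2 and Akap4 were at 0 and the sum was at most 4.40. The part of these shifts in the results below was not tested. Every library pooled 5 two-cell embryos, and all levels are shares of a library. Less RNA of a gene per embryo and more RNA of other genes therefore cannot be told apart.

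In non-injection embryos the members covered a wide range of levels per length. Chek1 was the most abundant, with a mean FPKM of 112 ± 0.311 (SD, n = 2), and Atr the least, with 0.678 ± 0.0064 (SD, n = 2). Between them stood Brca2 at 51.2, Chek2 at 51.1, Mdm2 at 37.5, Atm at 15.8, Cdkn1a at 12.9, Trp53 at 6.78 and Brca1 at 3.64 (mean FPKM, n = 2). The libraries of Brca2 and Chek2 overlapped, as did those of Atm and Cdkn1a, so these neighbours were not ordered beyond their spread. The gene lengths used by the authors join all annotated exons, and for Atr this came to 23629 bases against 8102 bases for the longest coding transcript. Per base of the longest coding transcript in GENCODE M21, the mean level of Atr over the 6 libraries was 1.58 in place of 0.542, and it was still the lowest of the 9. On this scale Mdm2 moved from rank 3 to rank 2 of the means over all libraries, ahead of Brca2, and Trp53 moved ahead of Atm. These means pool all groups, and neither change of order held in non-injection alone.

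**Figure D1:**
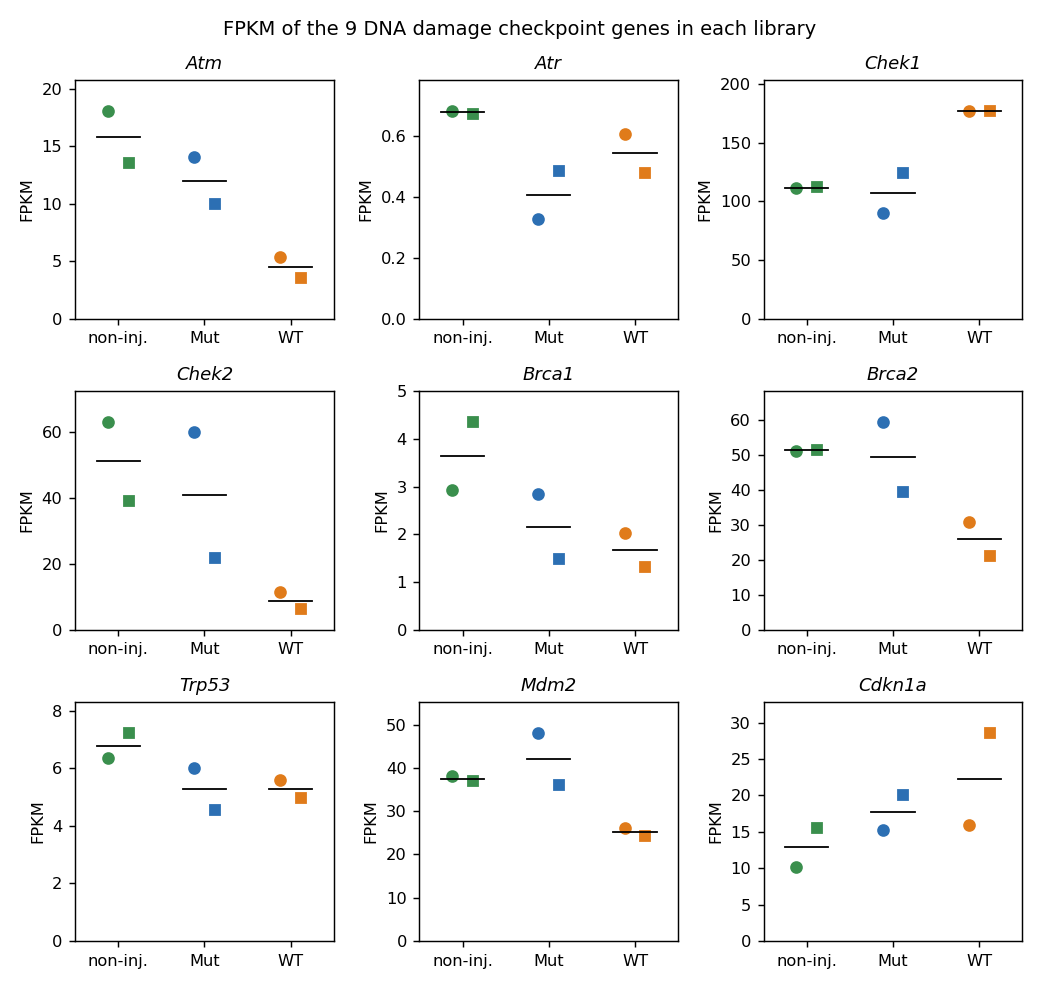
FPKM (linear axis from 0, one panel per gene) of the 9 genes in non-injection (green), PIASy-Mut (blue) and PIASy-WT (orange), with circles for replicate 1, squares for replicate 2 and a line for the mean of the 2 libraries. The PIASy-WT points of Chek1 lie above all others, and those of Chek2, Atm, Brca2 and Mdm2 lie below all others.

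Groups were compared with limma on log2(FPKM + 1) across the 16100 genes that reached an FPKM of 1 in 2 or more libraries, and P-values were adjusted over all of them by the Benjamini-Hochberg method. Of the 9 members 8 entered the test and Atr did not. At an adjusted P of at most 0.05, 0 of the 8 passed in PIASy-WT against non-injection, where 6.8% of all genes tested passed (5.76% lower and 1.03% higher). Against PIASy-Mut 0 of the 8 passed as well, where 6.83% of all genes passed (6.01% lower and 0.82% higher). At an unadjusted P under 0.05, 4 of the 8 members (3 lower and 1 higher) differed from non-injection and 5 of the 8 (4 lower and 1 higher) from PIASy-Mut, against 28.2% and 27.7% of all genes. These comparisons share the PIASy-WT libraries.

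Both PIASy-WT libraries lay below all 4 other libraries for Chek2, Atm, Brca2 and Mdm2, and above all 4 for Chek1. Such a position was found for 24.4% of all genes tested below and for 19.9% above, so for 44.3% in either direction. For some members a separation of PIASy-WT from non-injection alone is given below, and its share over all genes was not computed. Between PIASy-Mut and non-injection such a separation was found for 25.7% of all genes tested, in either direction. The median log2 fold change of the 8 members was -0.67 relative to non-injection and -0.46 relative to PIASy-Mut, where the medians of all genes were 0.01 and -0.03. When limma was run with voom on the recovered fragments in place of log2(FPKM + 1), Chek2, Atm and Brca2 passed against non-injection and Chek2, Atm, Brca2 and Chek1 against PIASy-Mut, where 16.9% and 15.0% of all genes passed.

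The calls of the members changed with the setting, and so did those of all genes. Among genes with an FPKM of 5 or more in 2 libraries, 2 members passed relative to non-injection and 1 relative to PIASy-Mut, beside 21.4% and 20.4% of all genes. In a fit of only the 4 libraries compared, 3 members passed relative to non-injection beside 21.1% of all genes, and 0 relative to PIASy-Mut beside 0.0%. Where 1 library was left out, its group was a single library and the spread came from the other groups. Without PIASy-Mut 1 the members that passed numbered 3 and 0, beside 18.0% and 0.0%, and without PIASy-Mut 2 they numbered 3 and 3, beside 17.8% and 19.9%. Without a non-injection or a PIASy-WT library 0 members passed, beside at most 0.00658% (PIASy-WT 1 left out) and 0.00665% (PIASy-WT 2 left out). In 6 other settings (the block on replicate number is given with the processing alternatives) 0 members passed as well, with backgrounds in the comparisons with non-injection and PIASy-Mut of 5.47% and 5.8% for a pseudocount of 0.1, 6.69% and 6.47% for 0.5, 0.611% and 0.913% without a filter, 5.79% and 3.81% after quantile normalization, 5.56% and 4.6% after median-of-ratios rescaling and 1.96% and 3.44% without a trend.

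**Figure D2:**
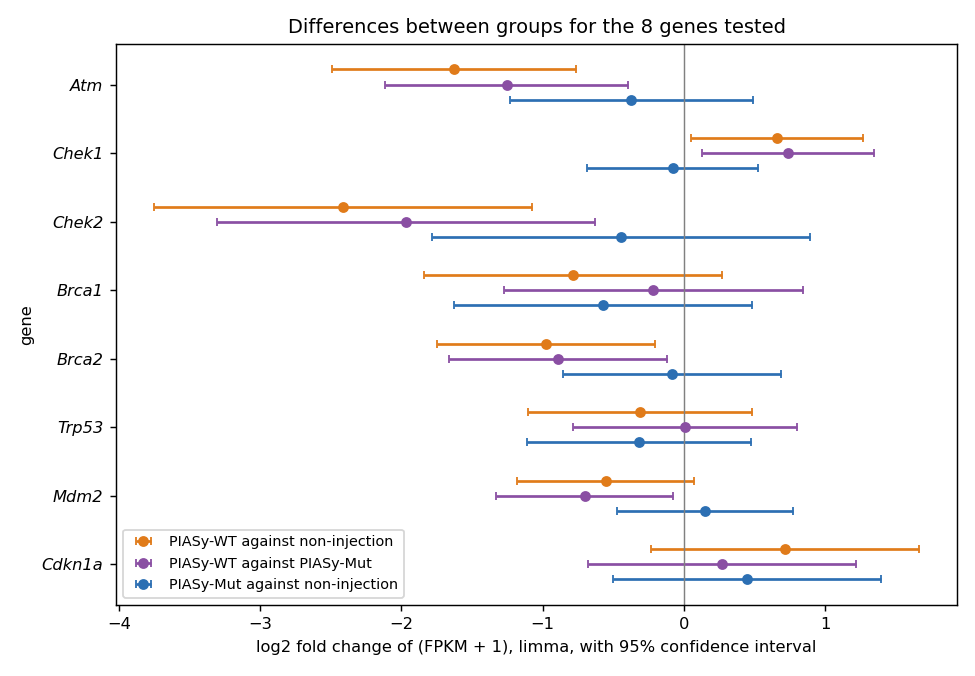
Log2 fold change of FPKM + 1 (horizontal axis) for the 8 genes tested, with 95% confidence intervals from limma, in PIASy-WT against non-injection (orange), PIASy-WT against PIASy-Mut (purple) and PIASy-Mut against non-injection (blue). The intervals of Chek2, Atm, Brca2 and Chek1 leave out 0 in both comparisons of PIASy-WT, and all 8 blue intervals include 0.

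Of the damage kinases, Atm (ENSMUSG00000034218.15, chromosome 9 of mm10, from 53439149 to 53536740, minus strand) had FPKM values of 18.1 and 13.5 without injection, 14.1 and 9.99 for PIASy-Mut and 5.40 and 3.53 for PIASy-WT. These values rest on 255, 158, 150, 90, 74 and 42 fragments. The lowest library outside PIASy-WT was PIASy-Mut 2, and both PIASy-WT libraries lay below it. In PIASy-WT the log2 fold change from limma was -1.63 relative to non-injection (standard error 0.35, 95% interval -2.49 to -0.76, limma adjusted P=0.0507), just outside the threshold, and -1.26 relative to PIASy-Mut (limma adjusted P=0.0855). Of 16 alternative settings 6 made Atm pass in the first of these, with adjusted P values between 0.00518 and 0.247. Of their 50-base stretches, Atm, Chek1 and Brca1 share 0.0% with other annotated genes, Mdm2 1.3%, Brca2 2.0%, Trp53 3.9%, Atr 4.8%, Chek2 5.0% and Cdkn1a 8.5%.

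Atr (ENSMUSG00000032409.15, chromosome 9, from 95857597 to 95951781, plus strand), the kinase of the replication stress branch, had few fragments, with 22 and 18 without injection, 8 and 10 for PIASy-Mut and 19 and 13 for PIASy-WT. In FPKM these were 0.683 and 0.674, then 0.328 and 0.486, then 0.607 and 0.479. PIASy-WT overlapped PIASy-Mut, and both groups lay below non-injection. With no filter on low values its log2 fold change was -0.12 relative to non-injection (95% interval -0.94 to 0.70, limma adjusted P=0.884) and 0.13 relative to PIASy-Mut. Antisense Gm16794 overlaps Atr, with up to 8 fragments in a library. Without a stated strand setting these cannot be assigned with certainty.

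Chek1 (ENSMUSG00000032113.16, chromosome 9, from 36708482 to 36727065, minus strand), the effector kinase of ATR, was the only member whose PIASy-WT values all exceeded the others. FPKM values were 111 and 112 without injection, 89.7 and 124 for PIASy-Mut and 177 and 176 for PIASy-WT. With 429 to 1087 fragments per library it was the member measured with the most fragments in total. The replicates of PIASy-WT and of non-injection were nearly identical, and the PIASy-Mut replicates spanned the non-injection values. With limma the log2 fold change in PIASy-WT was 0.66 relative to non-injection (standard error 0.25, 95% interval 0.05 to 1.27, limma adjusted P=0.152) and 0.74 relative to PIASy-Mut (95% interval 0.13 to 1.35, limma adjusted P=0.122). Without PIASy-Mut 2 the latter was 0.97 (limma adjusted P=0.0274), with a single PIASy-Mut library left, and without PIASy-Mut 1 it was 0.50 (limma adjusted P=0.21).

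Chek2 (ENSMUSG00000029521.7, chromosome 5, from 110839979 to 110874145, plus strand), the effector kinase of ATM, showed the largest difference of the 8 members tested. FPKM values were 63.0 and 39.2 without injection, 60.0 and 21.8 for PIASy-Mut and 11.3 and 6.38 for PIASy-WT, from 258, 133, 186, 57, 45 and 22 fragments. Replicates differed widely in PIASy-Mut, yet its lower library was still above both PIASy-WT libraries. By limma, PIASy-WT had a log2 fold change of -2.41 relative to non-injection (standard error 0.55, 95% interval -3.75 to -1.07, limma adjusted P=0.055) and -1.97 relative to PIASy-Mut (95% interval -3.31 to -0.63, limma adjusted P=0.0833). Without the library PIASy-Mut 2 the value was -2.68 relative to the single PIASy-Mut library left (limma adjusted P=0.0243), and without PIASy-Mut 1 it was -1.26 (limma adjusted P=0.229). Over the 16 alternatives it passed against non-injection in 6 and against PIASy-Mut in 4, with adjusted P from 0.00621 to 0.239 and from 0.0205 to 0.321.

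The ratio of Chek1 to Chek2 within a library does not depend on how libraries were scaled against each other. It was chosen after the values were seen and is a description without a test. The FPKM of Chek1 was 1.77 and 2.85 times that of Chek2 in non-injection, 1.49 and 5.70 times in PIASy-Mut and 15.6 and 27.7 times in PIASy-WT. The ratio of Chek1 to Atm was 6.16 and 8.27 without injection, 6.38 and 12.4 for PIASy-Mut and 32.8 and 49.9 for PIASy-WT. That both PIASy-WT libraries lay above the other 4 in each ratio follows from the positions of the genes given above, and the ratios add the size only. PIASy-Mut 2 was the closest of the other libraries.

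**Figure D3:**
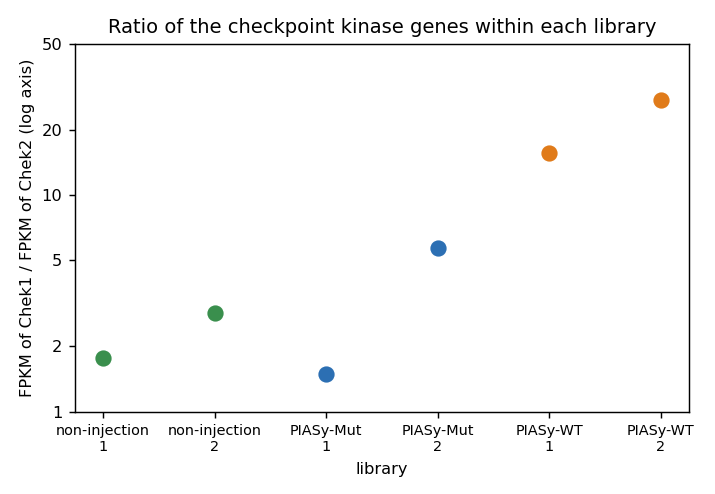
FPKM of Chek1 divided by FPKM of Chek2 in each of the 6 libraries (log axis), coloured by group. The PIASy-WT libraries, at 15.6 and 27.7, stand above the other 4 libraries, the highest of which is PIASy-Mut 2 at 5.70.

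Brca2 (ENSMUSG00000041147.10, chromosome 5, from 150522630 to 150570329, plus strand), which acts on resected DNA, was well covered. FPKM values were 51.2 and 51.3 without injection, 59.4 and 39.3 for PIASy-Mut and 30.9 and 21.1 for PIASy-WT, from 953, 791, 836, 467, 558 and 331 fragments. The groups PIASy-WT and PIASy-Mut approached each other only through PIASy-Mut 2. In PIASy-WT the log2 fold change from limma was -0.98 relative to non-injection (standard error 0.32, 95% interval -1.75 to -0.20, limma adjusted P=0.112) and -0.89 relative to PIASy-Mut (95% interval -1.67 to -0.12, limma adjusted P=0.134).

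Brca1 (ENSMUSG00000017146.12, chromosome 11, from 101488764 to 101551955, minus strand), which promotes resection, was far less abundant than Brca2. FPKM values were 2.92 and 4.35 without injection, 2.84 and 1.48 for PIASy-Mut and 2.03 and 1.33 for PIASy-WT, from 11 to 42 fragments per library. PIASy-WT and PIASy-Mut overlapped, while both PIASy-WT libraries were below both non-injection libraries. The log2 fold change against non-injection was -0.79 with a 95% interval from -1.84 to 0.27 (limma adjusted P=0.287), and the value of Brca2 lies within this interval. Against PIASy-Mut it was -0.22 (95% interval -1.27 to 0.84, limma adjusted P=0.784), and without PIASy-Mut 1 it was 0.10.

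In the p53 axis, Trp53 (ENSMUSG00000059552.13, chromosome 11, from 69580359 to 69591873, plus strand) had FPKM values of 6.34 and 7.21 without injection, 5.99 and 4.54 for PIASy-Mut and 5.60 and 4.95 for PIASy-WT, from 16 to 35 fragments per library. The PIASy-WT values lay between those of PIASy-Mut and below those of non-injection. With limma the log2 fold change in PIASy-WT was -0.31 relative to non-injection (95% interval -1.10 to 0.48, limma adjusted P=0.561) and 0.01 relative to PIASy-Mut (95% interval -0.78 to 0.80).

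Mdm2 (ENSMUSG00000020184.15, chromosome 10, from 117688875 to 117710758, minus strand), the ubiquitin ligase for p53 and itself a p53 target, had FPKM values of 38.1 and 36.9 without injection, 48.0 and 36.1 for PIASy-Mut and 26.1 and 24.3 for PIASy-WT, from 142 to 264 fragments per library. Both PIASy-WT libraries lay below the other 4. By limma, PIASy-WT had a log2 fold change of -0.55 relative to non-injection (standard error 0.26, 95% interval -1.18 to 0.07, limma adjusted P=0.219) and -0.70 relative to PIASy-Mut (95% interval -1.33 to -0.08, limma adjusted P=0.142). Without PIASy-Mut 2 it was -0.90 relative to the single PIASy-Mut library left (limma adjusted P=0.0492), and without PIASy-Mut 1 it was -0.50 (limma adjusted P=0.279). After quantile normalization the values were -0.24 relative to non-injection and -0.32 relative to PIASy-Mut.

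Cdkn1a (ENSMUSG00000023067.13, chromosome 17, from 29090979 to 29100722, plus strand), which encodes p21 and is the standard readout of active p53, had FPKM values of 10.2 and 15.5 without injection, 15.3 and 20.1 for PIASy-Mut and 15.95 and 28.6 for PIASy-WT, from 31 to 73 fragments per library. The groups PIASy-WT and PIASy-Mut overlapped, and both PIASy-WT libraries were above both non-injection libraries, the nearer by a small margin. In PIASy-WT the log2 fold change from limma was 0.72 relative to non-injection (95% interval -0.23 to 1.67, limma adjusted P=0.28) and 0.27 relative to PIASy-Mut. Without PIASy-WT 2 these values were 0.32 and -0.13, so the sign against PIASy-Mut rests on 1 library. Cdkn1a and Mdm2, both induced by p53, thus had opposite signs in both comparisons of PIASy-WT, and neither passed the test.

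Between PIASy-Mut and non-injection 0 of the 8 members passed or had an unadjusted P under 0.05, where 0.00621% of all genes (Pias4 alone) passed and 4.46% had an unadjusted P under 0.05. The log2 fold changes ranged from -0.57 for Brca1 to 0.44 for Cdkn1a, and the median was -0.20 against 0.04 over all genes. Leaving out 1 library moved these values to between -0.89 and -0.26 for Brca1, 0.17 and 0.72 for Cdkn1a, -0.60 and -0.14 for Atm and -0.49 and -0.15 for Trp53. The interval of Chek2 was wide, from -1.78 to 0.89, and that of Chek1 was from -0.69 to 0.53. With voom 0 members passed as well.

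**Figure D4:**
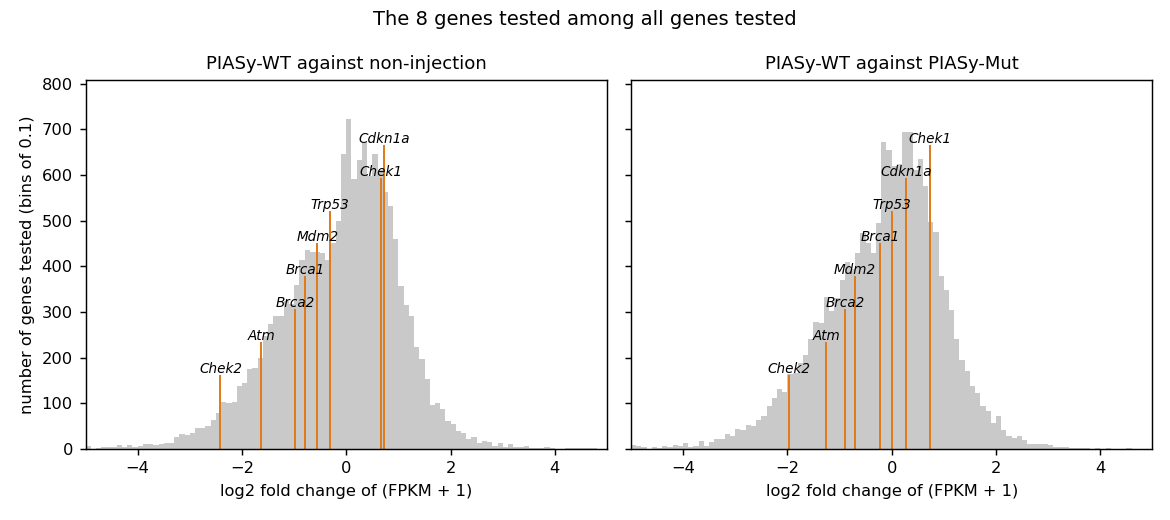
Number of genes (vertical axis, bins of 0.1) by log2 fold change of FPKM + 1 for the 16100 genes tested in PIASy-WT against non-injection (left) and against PIASy-Mut (right), with the 8 members as vertical lines whose height has no meaning and values beyond 5 drawn at 5. Chek2 lies in the lower tail at -2.41 and -1.97, while Trp53 lies near the centre at -0.31 and 0.01.

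The surrounding pathway was described with 8 lists of 127 genes in all, of which 115 were tested. Against non-injection 6 were lower and 1 was higher in PIASy-WT (6.09% of those tested, beside 6.8% of all genes), and against PIASy-Mut 5 were lower and 0 higher (4.35%, beside 6.83%). Both shares were near those of all genes. In the same order the median log2 fold changes were -0.18 and -0.28. In PIASy-Mut relative to non-injection 0 pathway genes passed. Without either non-injection library or either PIASy-WT library 0 pathway genes passed in the comparisons of PIASy-WT, and without PIASy-Mut 1 the numbers were 20 relative to non-injection and 0 relative to PIASy-Mut. Without PIASy-Mut 2 they were 21 and 26. In those fits 18.0% and 0.0% of all genes passed without PIASy-Mut 1, and 17.8% and 19.9% without PIASy-Mut 2. When any 1 of the non-injection or PIASy-WT libraries was left out, 0 or 1 of all genes passed in each of these comparisons.

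Among 15 sensors and mediators of double-strand breaks, 1 of 14 tested passed, with a median log2 fold change of -0.37 relative to non-injection. This was Rnf8, a ubiquitin ligase that builds the signalling platform on chromatin around breaks. FPKM values were 16.6 and 12.5 without injection, 32.9 and 14.4 for PIASy-Mut and 1.42 and 3.01 for PIASy-WT, so it fell by 2.31 on the log2 scale against non-injection (limma adjusted P=0.0469) and by 2.88 relative to PIASy-Mut (limma adjusted P=0.0317). Rnf8 shares 14.5% of its 50-base stretches with other genes. Only uniquely mapped reads were counted, so fragments from these stretches may be missing from its count. The most abundant of the list, Rif1, which limits resection, ranged only from 98.3 to 117 FPKM over the 6 libraries, and Rad50 of the MRN complex from 18.7 to 29.9.

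Of 14 genes of replication stress sensing and the ATR pathway, 14 were tested and 0 passed in any comparison, with a median of -0.28 relative to non-injection. Tipin, a fork protection factor, was very abundant, with an FPKM of 296 to 522. Rpa2, a subunit of the single-strand binding complex that recruits ATR, had FPKM values of 80.6 and 66.5 without injection, 131 and 47.9 for PIASy-Mut and 21.4 and 19.5 for PIASy-WT. With limma the log2 fold change in PIASy-WT was -1.79 relative to non-injection (limma adjusted P=0.0733) and -1.91 relative to PIASy-Mut (limma adjusted P=0.0655). Both PIASy-WT values lay below the other 4.

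Of 22 other homologous recombination genes, all tested, 1 was lower and 1 higher against non-injection and 0 passed against PIASy-Mut, where 22 of 22 missed the threshold. Dna2, a nuclease of long-range resection, had 60, 47, 46 and 22 fragments outside PIASy-WT and 9 and 3 in PIASy-WT, and fell by 2.23 on the log2 scale against non-injection (limma adjusted P=0.04). Sfr1, a recombination cofactor, had FPKM values of 189 and 164 without injection, 166 and 248 for PIASy-Mut and 449 and 411 for PIASy-WT, and rose by a log2 fold change of 1.28 relative to non-injection (limma adjusted P=0.0497). Against PIASy-Mut the values were -1.93 for Dna2 (limma adjusted P=0.0513) and 1.08 for Sfr1 (limma adjusted P=0.0695). Rbbp8, which encodes the resection factor CtIP, had -0.52 relative to non-injection (limma adjusted P=0.285). The median of the list was 0.04.

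The 9 genes of non-homologous end joining (8 tested) and the 14 of the Fanconi anaemia pathway (12 tested) had 0 calls in every comparison. Their medians against non-injection were -0.01 and -0.86. Nhej1, an end-joining cofactor, had a log2 fold change of 0.76 and Xrcc5, which encodes Ku80, of -0.69 (adjusted P=0.309 and 0.233 by limma). In the Fanconi list, Ube2t, the E2 enzyme of the pathway, had -0.92 (limma adjusted P=0.11) and Faap24 had -1.45 (limma adjusted P=0.115). Faap24 overlaps Rhpn2 on the opposite strand, which had up to 483 fragments in a library, so its own count is uncertain.

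The checkpoint acts on CDK1, and of 10 genes at this step 1 passed against non-injection and 2 against PIASy-Mut, all lower, with a median of -0.73 relative to non-injection. Cdk1 itself had FPKM values of 182 and 181 without injection, 238 and 166 for PIASy-Mut and 42.1 and 31.2 for PIASy-WT. It fell by 2.29 relative to non-injection (standard error 0.28, limma adjusted P=0.0247) and by 2.42 relative to PIASy-Mut (limma adjusted P=0.0223) on the log2 scale. Cdc25c, the phosphatase that activates CDK1 and that CHK1 and CHK2 inhibit, fell by 2.51 relative to PIASy-Mut (limma adjusted P=0.0496) and had -2.46 relative to non-injection (limma adjusted P=0.0516). Wee2, the oocyte kinase that inhibits CDK1, had 0.72 relative to non-injection, with an FPKM of 388 and 446 in PIASy-WT and at most 311 elsewhere (limma adjusted P=0.145). Ccnb1, which encodes cyclin B1, had -0.46 (limma adjusted P=0.327). Cdc25c shares 11.9% and Ccnb1 23.4% of their 50-base stretches with other genes, so fragments from these stretches may be missing here too.

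Of 15 regulators of p53 (13 tested), 2 were lower relative to non-injection and 1 relative to PIASy-Mut. Sirt1, a deacetylase of p53 and other proteins, fell by 2.23 relative to non-injection (limma adjusted P=0.0463) and had -1.95 relative to PIASy-Mut (limma adjusted P=0.0603). Mdm4, the partner of MDM2, was the most abundant gene of the list, with an FPKM of 438 to 588, and had 0.24 relative to non-injection (limma adjusted P=0.546). Rchy1, another ubiquitin ligase for p53, had 0.38 (limma adjusted P=0.37) and shares 17.5% of its 50-base stretches with other genes. The median of the list was 0.14.

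Of 28 p53 targets besides Mdm2 and Cdkn1a (22 tested), 1 was lower and 0 were higher in each comparison of PIASy-WT, with a median of -0.69 relative to non-injection and -0.57 relative to PIASy-Mut. The gene was Tigar, a regulator of glycolysis, with an FPKM of 48.5 and 76.4 without injection, 80.8 and 48.3 for PIASy-Mut and 8.87 and 3.33 for PIASy-WT. It fell by 3.24 relative to non-injection (limma adjusted P=0.03) and fell by 3.28 relative to PIASy-Mut (limma adjusted P=0.0274) on the log2 scale. Trp53inp1, a p53-inducible cofactor, had 0.25 relative to non-injection (limma adjusted P=0.568).

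**Figure D5:**
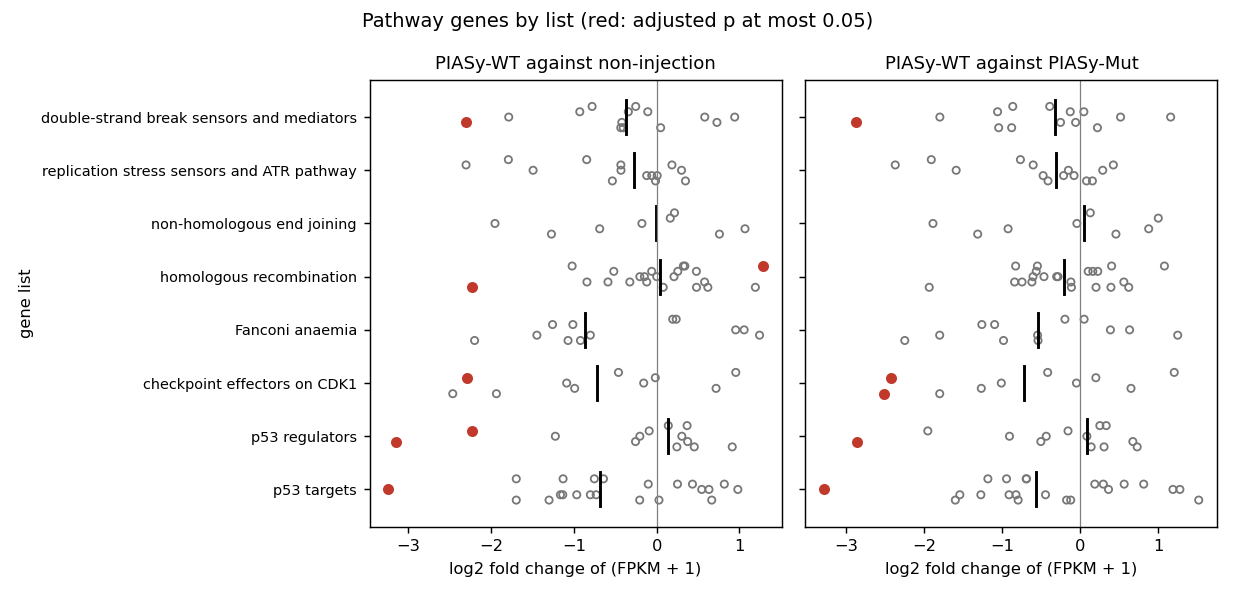
Log2 fold change of FPKM + 1 of the tested genes of the 8 pathway lists in PIASy-WT against non-injection (left) and against PIASy-Mut (right), with one point per gene, red where the adjusted P was at most 0.05 and a black bar at the median of each list. There are 7 red points on the left and 5 on the right, and Sfr1 is the only red point to the right of 0.

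For 7 members with a mean FPKM of at least 5, the genes most alike over the 6 libraries were sought among 7030 genes by Pearson correlation of log2(FPKM + 1). These are descriptions over 6 points that share the libraries, and the correlation ignores the size of a difference. Chek1 was closest to Tm2d1 (r = 0.9994) and Ccdc186 (r = 0.9975), and 33 genes had an r over 0.99 with it. Tm2d1 had FPKM values of 75.2 and 81.3 in PIASy-WT and at most 19.4 elsewhere, a larger difference than that of Chek1. Chek2 was closest to Gm11290 (r = 0.9999) and Btbd9 (r = 0.9983), Atm to Syncrip (r = 0.9978) and Snrpd1 (r = 0.9964), and Brca2 to Ppil4 (r = 0.9997) and Rpl21 (r = 0.9996). Mdm2 was closest to Psmd12 (r = 0.9975) and Timm17a (r = 0.9972), and 41 genes had an r over 0.99 with it. For Trp53 0 genes reached 0.99, the closest being Gm16020 (r = 0.9798) and Dusp1 (r = 0.9612), and Cdkn1a was closest to Zfp160 (r = 0.993) and Snx11 (r = 0.9841).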

How the data were processed

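RNA-seq data of 6 libraries in 3 groups were used, with groups and replicate numbers from the sample labels. The authors trimmed reads with Trim Galore, aligned them to mm10 with STAR, counted uniquely mapped reads with featureCounts and deposited FPKM values per gene. The annotation release and the strand setting are not given in the sources used here. Spike-in RNA was added, and the table has 0 such rows. Fragments were recovered as FPKM times gene length, divided by the value of 1 fragment.

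For group differences, lmFit and eBayes with a trend (limma 3.58.1, R 4.3.3) were run on log2(FPKM + 1) in 1 fit of all 6 libraries, with 3 residual and 3.12 prior degrees of freedom, over 16100 genes. The pseudocount of 1 understates changes of low genes. A gene passed at a Benjamini-Hochberg adjusted P of at most 0.05. With 2 libraries per group no exact permutation test was of use. The procedure was run on simulated data with log2 changes of 2 or 3 in size, which says nothing about finding smaller differences. The 16 alternatives changed the pseudocount, filter, scaling, libraries, block, eBayes trend or test. The authors used DESeq2 on their counts. Here limma was used on the FPKM values as deposited, and the recovered fragments were tested with voom only.

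The members and lists were chosen with earlier results of these data known. Genes named were the 9 members, Pias4, the 2 most abundant genes of each list, up to 5 genes of each list past the test, and the 2 genes most alike each member with a mean FPKM of at least 5. Of the p53 regulators, 1 gene past the test is counted but not reported here by name. Python 3.11.15, numpy 2.4.6, pandas 2.3.3 and matplotlib 3.10.9 were used.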

Additional observations from a re-analysis of the deposited data

How the results depend on the processing

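Of 381 values of the 24 member fold changes under 16 alternatives, 348 kept their sign and side of the threshold (no member passed to begin with), 25 newly passed and 8 changed sign. Of the members, 2 (Chek2 and Atm) passed against non-injection with an FPKM of at least 5 in 2 libraries, 3 with only the 4 libraries compared, 2 with the replicate block and 3 with voom. Against PIASy-Mut 1 passed with that filter, 1 with the block and 4 with voom, and leaving out 1 library gave 0 to 3 in both comparisons. The labels tie no replicate number to a shared collection, and the differences between replicates 1 and 2 correlated at 0.0037 to 0.0851 between groups over genes, so the block describes a number only (5.02% and 5.38% of all genes passed with it).

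Among the newly passing fold changes, those against non-injection outside the fits that left out 1 library were -1.63 for Atm and -2.41 for Chek2 (filter, 4 libraries and block), 0.66 for Chek1 (4 libraries), and with voom -1.82 for Atm, -2.52 for Chek2 and -0.99 for Brca2. Against PIASy-Mut they were -1.97 for Chek2 (filter and block) and, with voom, -1.42 for Atm, 0.75 for Chek1, -2.08 for Chek2 and -0.92 for Brca2. The others came without PIASy-Mut 1 or PIASy-Mut 2 (Atm, Chek1 and Chek2 against non-injection in both fits) and without PIASy-Mut 2 (Chek1, Chek2 and Mdm2 against PIASy-Mut). Leaving out 1 library gave -1.88 to -1.38 for Atm, 0.66 to 0.66 for Chek1 and -2.78 to -2.04 for Chek2 against non-injection. Against PIASy-Mut it gave 0.50 to 0.97 for Chek1, -2.68 to -1.26 for Chek2, -0.90 to -0.50 for Mdm2, -0.53 to 0.10 for Brca1, -0.16 to 0.18 for Trp53 and -0.13 to 0.67 for Cdkn1a. For PIASy-Mut against non-injection it gave -0.31 to 0.15 for Chek1, -1.15 to 0.27 for Chek2, -0.38 to 0.21 for Brca2 and -0.052 to 0.35 for Mdm2. The cause of these shifts was not tested.

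Pathway genes past the test against non-injection numbered 4 with a pseudocount of 0.1, 1 without a filter, 13 with an FPKM of at least 5, 4 under quantile normalization, 4 under median-of-ratios rescaling, 22 with only 4 libraries, 2 without a trend and 25 with voom, and 21.4%, 21.1% and 16.9% of all genes passed with that FPKM minimum, 4 libraries and voom. Against PIASy-Mut they were 1 without a filter, 17 with an FPKM of at least 5, 0 with only 4 libraries and 24 with voom, beside 0.913%, 20.4%, 0.0% and 15.0% of all genes. Leaving out 1 library gave 0 to 21 and 0 to 26. Quantile normalization moved the median of all genes to 0.12 against non-injection and 0.11 against PIASy-Mut, and no member changed sign under it, but Mdm2 moved to -0.24 and -0.32, Trp53 to -0.13 and 0.25 and, against PIASy-Mut, Brca2 to -0.53, Brca1 to -0.13 and Cdkn1a to 0.63. Atr, Brca1 and Trp53 had 8 to 42 fragments per library.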
